A study of Homo sapiens with 24 samples.

Results

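The genes described here encode the human trypsinogens PRSS1, PRSS2 and PRSS3 and the HtrA serine proteases HTRA1, HTRA2 and HTRA3. They were chosen by name, and they are 6 of the 34834 genes with at least 1 transcript in the expression tables. All were measured by RNA-Seq in SK-MES1, an established cell line from a squamous cell carcinoma of the human lung. The cells carried no engineered allele, and both arms were deprived of growth factors for 3 hours. One arm was then left untreated and the other was stimulated with 2 ng/ml TGFβ1, a cytokine that drives epithelial-to-mesenchymal transition. Each arm was sampled in 3 replicates at 0, 8, 24 and 48 h, so the series holds 24 libraries in 8 groups. At 0 h the TGFβ arm had had no time with the cytokine, and the comparison at that time serves as the background. Total estimated counts per library lay between 46613589 and 77964234, with a median of 54120879. The single line stands for 1 tumour. Of 8 squamous markers checked, KRT5, KRT14, KRT6A and DSG3 stayed at or below 0.102 TPM (kallisto's level of a transcript, corrected for length and scaled to the library) in every library. The highest library levels of the other markers were 71.4 TPM for KRT17, 58.5 TPM for PKP1, 37.5 TPM for TP63 and 8.17 TPM for SOX2. Their means in untreated cells at 0 h were 1.32, 35.0, 9.29 and 2.03 TPM in the same order. At 48 h KRT17 stood at 5.41 TPM untreated and 70.5 TPM with TGFβ, and SOX2 at 5.23 and 0.432 TPM. In bulk RNA, fewer cells expressing a gene and less RNA of it per cell cannot be told apart.

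Trypsinogens are the inactive precursors of trypsin, a protease that cuts after lysine and arginine. The pancreas secretes them into the gut, where enteropeptidase cuts off a short activation peptide, and active trypsin then activates further trypsinogen. PRSS1 encodes cationic trypsinogen, PRSS2 anionic trypsinogen and PRSS3 mesotrypsinogen, a form that many protein inhibitors of trypsin fail to block. Outside the pancreas, trypsins are known to cleave the receptor PAR2 (gene F2RL1), and PRSS3 has an alternative upstream first exon that is used in brain and other tissues. HTRA1 and HTRA3 are secreted and cut extracellular matrix proteins and binding proteins of the TGFβ family, whereas HTRA2 resides between the mitochondrial membranes and, once released, binds and cleaves inhibitors of apoptosis.

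The trypsinogen genes are near copies of each other, so the first question was how well their reads can be told apart. The coding sequences of 741 bases were 92.8% identical between PRSS1 and PRSS2, 91.5% between PRSS1 and PRSS3 and 93.3% between PRSS2 and PRSS3. The longest identical stretch was 68 bases for PRSS1 and PRSS2. For PRSS2 and PRSS3 it was 63 bases. The following stretch, bases 284 to 373 of the coding sequence, is the 90-base window within 1 exon in which the genes differed most, and it shows where reads can be assigned. It lies at chr7:142751857-142751946 in PRSS1, at chr7:142773349-142773438 in PRSS2 and at chr9:33797912-33798001 in PRSS3 (GRCh38, plus strand). Capitals mark bases of PRSS1 and PRSS3 that differ from PRSS2, and in PRSS2 the bases that differ from either.
PRSS1: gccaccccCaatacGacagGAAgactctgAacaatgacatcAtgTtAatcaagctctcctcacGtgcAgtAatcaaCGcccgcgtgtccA
PRSS2: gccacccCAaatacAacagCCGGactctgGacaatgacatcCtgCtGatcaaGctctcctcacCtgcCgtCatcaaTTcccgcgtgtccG
PRSS3: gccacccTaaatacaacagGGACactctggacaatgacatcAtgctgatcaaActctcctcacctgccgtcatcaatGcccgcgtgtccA

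PRSS1 held 15 differences from PRSS2 in this window and PRSS3 held 9. The neighbouring window, bases 201 to 290 of the coding sequence, was the one in which the genes differed least. It is printed because reads from it can carry too few differences to name their gene. It lies at chr7:142751774-142751863 in PRSS1, at chr7:142773266-142773355 in PRSS2 and at chr9:33797829-33797918 in PRSS3, with capitals as above.
PRSS1: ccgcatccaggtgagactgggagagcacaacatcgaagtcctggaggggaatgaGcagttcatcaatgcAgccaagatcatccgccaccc
PRSS2: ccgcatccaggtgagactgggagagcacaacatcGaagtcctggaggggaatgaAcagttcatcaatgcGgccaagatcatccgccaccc
PRSS3: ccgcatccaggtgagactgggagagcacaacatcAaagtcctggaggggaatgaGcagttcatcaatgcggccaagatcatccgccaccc

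Over whole transcripts, shared sequence was a minority. Of the 31-base words of the main PRSS2 transcript ENST00000539842, 17.5% occurred in a transcript of PRSS1 or PRSS3, and 24.1% occurred in a transcript of any other gene. For the main PRSS1 transcript ENST00000311737, 13.0% occurred in another trypsinogen gene and 17.1% in any other gene. For the PRSS3 transcript ENST00000361005 the shares were 9.0% and 18.6% in the same order. With words of 75 bases, none of these transcripts shared a word with another trypsinogen gene. Some other transcripts did. Of the 75-base words of the PRSS2 transcript ENST00000610835, 3.1% occurred in PRSS1. Of those of the PRSS1 transcripts ENST00000497041 and ENST00000485223, 3.0% and 1.1% occurred in PRSS2. The words were read from GENCODE release 44, in which the lengths of several of these transcripts differ from those in the tables. The tables give 1 estimate per transcript after kallisto divided ambiguous reads, and the uncertainty of that division is not part of the spreads given below.

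PRSS1 (ENSG00000204983, chr7:142749468-142753072), cationic trypsinogen, was at the limit of detection in untreated cells and was higher in the TGFβ arm at 24 and 48 h. At 0 h the untreated libraries held 0.421, 0.398 and 0.174 TPM, and those of the TGFβ arm 0.298, 0.206 and 0.314 TPM. At 8 h the levels were 0.466, 0.546 and 0.196 TPM untreated against 0.864, 0.153 and 1.17 TPM. The groups overlapped at both times. At 24 h they stood at 0.173, 0.508 and 0.631 TPM untreated and at 4.52, 4.02 and 3.74 TPM with TGFβ. By 48 h they were 0.0799, 0.273 and 0.219 TPM untreated and 7.0, 5.53 and 3.82 TPM with TGFβ, so all treated libraries lay above all untreated libraries at the later times. These levels rest on few reads, with a mean of 6.64 estimated counts per untreated library and 142 per TGFβ library at 48 h. In limma voom, a linear model of log2 counts fitted to all genes at once, the difference between the arms was 3.49 on the log2 scale at 24 h (SE 0.52, adjusted p = 1.3e-05) and 4.63 at 48 h (SE 0.58, adjusted p = 1.2e-06). At 8 h it was 0.95 (SE 0.61), with adjusted p = 0.30 in limma voom.

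PRSS2 (ENSG00000275896, chr7:142760398-142774564), anionic trypsinogen, rose most steeply in TPM. At 0 h the untreated libraries held 12.1, 11.8 and 13.0 TPM and those of the TGFβ arm 14.9, 12.8 and 12.7 TPM. At 8 h the untreated libraries had reached 38.2, 41.1 and 43.5 TPM, while TGFβ-treated libraries stood at 84.6, 79.2 and 74.5 TPM. The rise in untreated cells then levelled off. It was 49.2, 41.8 and 50.8 TPM at 24 h and 45.9, 51.6 and 47.9 TPM at 48 h without TGFβ. In treated cells it went on, to 322, 318 and 313 TPM at 24 h and 1052, 1055 and 1043 TPM at 48 h. From 8 h on, the arms did not overlap in any library. The TGFβ arm ended at 78.0 times its own mean at 0 h, and the untreated arm at 3.95 times. The limma voom difference between the arms was 1.02 on the log2 scale at 8 h (SE 0.078, adjusted p = 1.9e-09), 2.77 at 24 h (SE 0.073, adjusted p = 2.1e-17) and 4.47 at 48 h (SE 0.071, adjusted p = 5.4e-21).

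PRSS3 (ENSG00000010438, chr9:33750679-33799231), mesotrypsinogen, fell with time in both arms but less with TGFβ. At 0 h it stood at 52.5, 45.8 and 40.9 TPM in the untreated libraries and at 53.5, 48.4 and 49.3 TPM in the TGFβ arm. At 8 h the values were 25.8, 23.7 and 24.3 TPM untreated and 43.2, 40.3 and 40.7 TPM with TGFβ. At 24 h they were 13.5, 12.2 and 11.3 TPM against 34.3, 33.9 and 33.2 TPM. At 48 h the untreated libraries held 7.69, 9.35 and 7.54 TPM and the treated libraries 23.2, 21.8 and 24.8 TPM. The arms overlapped at 0 h and were apart at each later time. The untreated arm ended at 0.177 times its mean at 0 h and the TGFβ arm at 0.461 times. In limma voom the difference between the arms was 0.74 on the log2 scale at 8 h (SE 0.086, adjusted p = 1.0e-06), 1.37 at 24 h (SE 0.10, adjusted p = 4.9e-10) and 1.44 at 48 h (SE 0.12, adjusted p = 1.9e-09). The level with TGFβ was thus above the untreated level and below its own level at 0 h at every later time.

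HTRA1 (ENSG00000166033, chr10:122458551-122514907), the secreted protease, varied little in untreated cells and rose late with TGFβ. Over the 12 untreated libraries the group means lay between 83.5 TPM at 8 h and 89.6 TPM at 48 h. In the TGFβ arm the 0 h libraries held 90.1, 88.5 and 85.0 TPM, and the 8 h libraries 93.1, 94.7 and 101 TPM. At 24 h the treated libraries held 161, 175 and 176 TPM and at 48 h 497, 497 and 493 TPM. The 3 untreated libraries at 48 h held 90.3, 88.9 and 89.6 TPM. Treated and untreated libraries were apart from 8 h on. The limma voom difference was 0.27 on the log2 scale at 8 h (SE 0.044, adjusted p = 9.8e-05), 1.01 at 24 h (SE 0.044, adjusted p = 7.5e-14) and 2.47 at 48 h (SE 0.042, adjusted p = 1.6e-20).

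HTRA3 (ENSG00000170801, chr4:8269754-8307098), the other secreted member, had its highest level at 8 h in both arms and differed between the arms mainly at 48 h. At 0 h it stood at 65.5, 57.3 and 68.1 TPM in the untreated libraries and at 67.4, 53.0 and 68.1 TPM in the TGFβ arm. At 8 h the untreated libraries held 130, 137 and 142 TPM and the treated libraries 154, 154 and 155 TPM. At 24 h the values were 71.8, 59.2 and 70.8 TPM against 84.5, 67.9 and 80.3 TPM, and the arms overlapped. At 48 h they were 29.6, 26.8 and 28.5 TPM untreated against 52.1, 53.3 and 51.9 TPM treated, with no overlap. The limma voom difference at 48 h was 0.89 on the log2 scale (SE 0.11, adjusted p = 1.5e-06). It did not pass at 8 h, where it was 0.23 (SE 0.099, adjusted p = 0.11), nor at 24 h, where it was 0.21 (SE 0.11, adjusted p = 0.13). At 0 and 24 h libraries with the same replicate number deviated together. At 24 h replicates 1 and 3 of opposite arms did so too (r = 0.209 and 0.268), so the deviations did not follow the replicate number alone. With the replicate number as a block within each time point limma voom gave HTRA3 an adjusted p = 0.0005 at 24 h.

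HTRA2 (ENSG00000115317, chr2:74529596-74533350), the mitochondrial member, differed least between the arms. At 0 h it stood at 33.3, 28.2 and 32.3 TPM untreated and at 34.7, 30.3 and 32.3 TPM in the TGFβ arm. At 48 h it was 45.7, 42.4 and 45.3 TPM untreated and 51.3, 49.6 and 51.2 TPM treated. The libraries were apart at 24 and 48 h and overlapped at 0 and 8 h. The limma voom difference was 0.18 on the log2 scale at 48 h, with a 95% interval from 0.03 to 0.33 and an adjusted p = 0.048, above the threshold of 0.01. At 24 h it was 0.15 (SE 0.073, adjusted p = 0.099) in limma voom, and with the replicate number as a block within each time point 0.16 with adjusted p = 0.002.

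**Figure D1:**
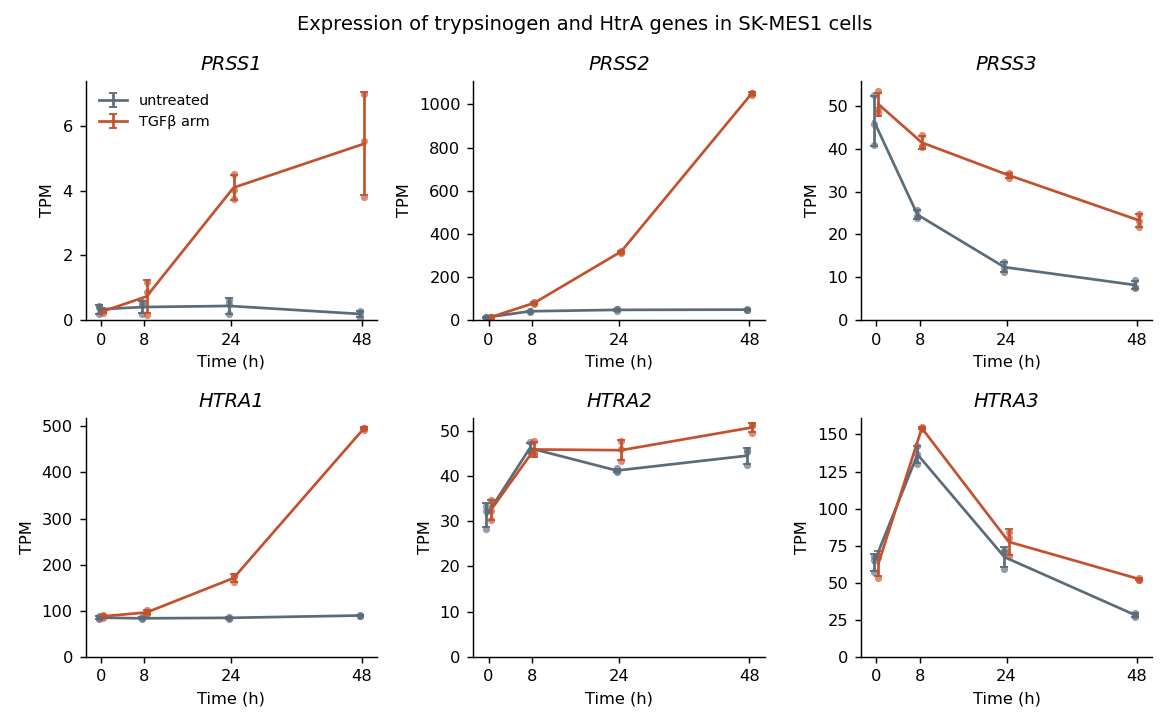
TPM (y axis, from 0, a scale of its own per gene) against time in hours (x axis) for each gene. Points are libraries, lines join the group means, and bars are SD of 3 libraries. PRSS2 in the TGFβ arm reaches a mean of 1050 TPM at 48 h against 48.5 TPM untreated, PRSS3 falls in both arms, HTRA1 rises after 8 h in the TGFβ arm, and HTRA3 is highest at 8 h in both arms.

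Ordered by TPM, the genes changed places during the time course. In untreated cells at 0 h the order was HTRA1, HTRA3, PRSS3, HTRA2, PRSS2 and PRSS1, with means of 84.9, 63.6, 46.4, 31.3, 12.3 and 0.331 TPM. No neighbours in this order overlapped in any library, whereas HTRA3 and PRSS3 did overlap in the TGFβ arm at 0 h. After 48 h without TGFβ the order was HTRA1, PRSS2, HTRA2, HTRA3, PRSS3 and PRSS1. After 48 h with TGFβ it was PRSS2, HTRA1, HTRA3, HTRA2, PRSS3 and PRSS1, with means of 1050, 496, 52.4, 50.7, 23.3 and 5.45 TPM. Neighbours in these later orders did not overlap either.

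Against all 17453 genes tested, the response of the members can be read as follows. In the moderated F-test of limma voom over 8, 24 and 48 h, 5 of the 6 genes passed an adjusted p of 0.01, and 42.5% of all tested genes did. HTRA2 was the exception, with adjusted p = 0.052 in limma voom. The 5 genes were all higher with TGFβ on average over the 3 times, as were 21% of tested genes. At 0 h limma voom called 0 of the 6 and 0.00% of all genes, with 800 genes at an unadjusted p under 0.05. edgeR called 0 genes there, and DESeq2 called 8 genes but no member. At 8 h 3 members passed (PRSS2, PRSS3 and HTRA1), against 16.4% of genes, or 9.12% for higher calls. At 24 h 4 passed (with PRSS1), against 29.3%, or 15.4% for higher calls. At 48 h 5 passed (with HTRA3), against 32.6%, or 16.1% for higher calls. With so few members, these shares describe the set and say nothing particular about it.

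The file names of the libraries carry 4 codes, 1 per arm for 0 and 8 h and 1 per arm for 24 and 48 h. At 8, 24 or 48 h taken alone, an offset between codes and the effect of TGFβ thus cannot be told apart. For 8 h the 0 h groups of the same codes give a background, which 24 and 48 h lack. A change of the difference within a code pair cancels such an offset. From 0 to 8 h the difference between the arms grew by 0.85 on the log2 scale for PRSS2 (SE 0.15, adjusted p = 2.5e-04, limma voom) and by 0.62 for PRSS3 (SE 0.12, adjusted p = 8.6e-04, limma voom). These were 2 of the 6 genes, against 7.88% of all genes. HTRA1 missed with a growth of 0.23 (SE 0.064, adjusted p = 0.018 in limma voom), and it passed without TGFβ 0 h replicate 1 (0.29, adjusted p = 0.0011) and in DESeq2 (0.22, adjusted p = 0.0055). With the replicate block within each time point, limma voom called 4 of 6 for this change, HTRA1 (adjusted p = 0.004) and HTRA3 (adjusted p = 0.0097) being added. From 24 to 48 h it grew by 1.70 for PRSS2 (SE 0.10, adjusted p = 5.9e-10, limma voom), by 1.46 for HTRA1 (SE 0.061, adjusted p = 4.0e-12, limma voom) and by 0.68 for HTRA3 (SE 0.16, adjusted p = 4.3e-03, limma voom), which is 3 of 6 against 9.11% of all genes. The HTRA3 call was lost, with adjusted p from 0.01 to 0.015, when any of 7 libraries was left out: untreated 24 h replicates 1 and 3, untreated 48 h replicates 2 and 3, TGFβ 24 h replicate 2, and TGFβ 48 h replicates 1 and 2. For PRSS3 the difference did not grow beyond its error after 24 h (0.07, 95% interval from -0.25 to 0.40). For PRSS1 limma voom called neither change. The PRSS1 growth was 0.94 (SE 0.93, adjusted p = 0.65, limma voom) from 0 to 8 h. From 24 to 48 h it was 1.14 (SE 0.78, adjusted p = 0.39, limma voom). The PRSS1 calls between the arms at 24 and 48 h thus come from time points at which arm and code coincide.

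From 8 to 48 h, which crosses codes, the difference between the arms grew for 5 of the 6 genes, against 14.0% of all genes. The growth was 3.68 for PRSS1, 3.45 for PRSS2, 0.71 for PRSS3, 2.20 for HTRA1 and 0.66 for HTRA3 on the log2 scale. HTRA2 showed 0.15 (95% interval from -0.07 to 0.36). For PRSS1 the call was lost without untreated 8 h replicate 2 (adjusted p = 0.015, limma voom) or without untreated 48 h replicate 1 (adjusted p = 0.014, limma voom).

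**Figure D2:**
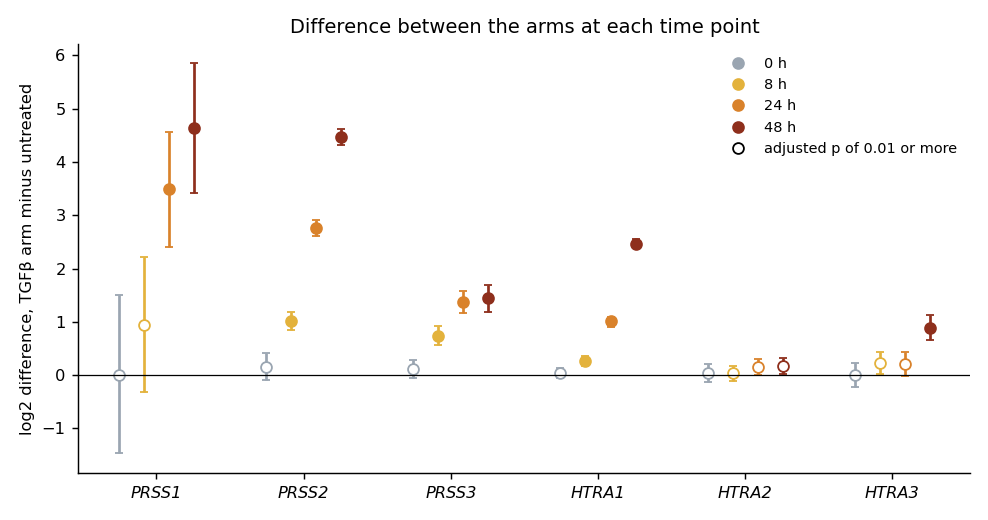
Difference between the TGFβ arm and untreated cells on the log2 scale (y axis) for each gene (x axis) and time point (colour), from limma voom with 95% confidence intervals. Filled points passed an adjusted p of 0.01. All 6 genes lie near 0 at 0 h. PRSS2 and HTRA1 climb at each time point, PRSS3 changes little between 24 h (1.37) and 48 h (1.44), and HTRA2 stays below 0.2.

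The levels also changed with time in untreated cells. Between 0 and 8 h without TGFβ, 4 of the 6 changed, against 25.9% of all genes: PRSS2 rose by 1.71 on the log2 scale (SE 0.11), HTRA3 rose by 1.05 (SE 0.10), HTRA2 rose by 0.47 (SE 0.074) and PRSS3 fell by 0.92 (SE 0.087). HTRA1 showed no change beyond its error (-0.06, 95% interval from -0.16 to 0.03). Between 24 and 48 h without TGFβ, 2 of the 6 changed, against 28.4% of all genes. PRSS3 fell by 0.69 (SE 0.12) and HTRA3 fell by 1.30 (SE 0.11). PRSS2 showed -0.03 (95% interval from -0.20 to 0.14), while its level with TGFβ kept growing. All values in this paragraph are limma voom estimates, and whether the 3 hours of growth factor depletion at the start had a part in the changes to 8 h was not tested.

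Within the TGFβ arm, 5 of the 6 genes changed between 0 and 8 h, against 33.8% of all genes. PRSS2 rose by 2.57 (SE 0.099), HTRA3 rose by 1.28 (SE 0.10), HTRA2 rose by 0.47 (SE 0.074), HTRA1 rose by 0.17 (SE 0.045) and PRSS3 fell by 0.30 (SE 0.082), all log2 values from limma voom. The calls of HTRA1 and PRSS3 were both lost when TGFβ 8 h replicate 2 or TGFβ 8 h replicate 3 was left out, which brought the count to 3. HTRA1 also lost its call without TGFβ 0 h replicate 2 or 3 and PRSS3 without TGFβ 0 h replicate 1. From 24 to 48 h in this arm 4 of the 6 changed, against 25.8% of all genes. PRSS2 rose by 1.67 (SE 0.061), HTRA1 rose by 1.48 (SE 0.041), and PRSS3 fell by 0.61 (SE 0.095) and HTRA3 by 0.62 (SE 0.11).

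The sum of the trypsinogen genes with their annotated pseudogenes does not depend on how reads were divided within the family. Its difference between the TGFβ arm and untreated cells was 0.90 on the log2 scale at 8 h (SE 0.075, adjusted p = 6.6e-09), 2.52 at 24 h (SE 0.074, adjusted p = 1.2e-16) and 4.22 at 48 h (SE 0.073, adjusted p = 1.7e-20) in limma voom. At 0 h it differed by 0.12 (95% interval from -0.05 to 0.29). Between 0 and 8 h the difference of the sum in untreated cells was -0.01 (95% interval from -0.18 to 0.15), while PRSS2 rose and PRSS3 fell within it.

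The composition of the summed TPM of PRSS1, PRSS2 and PRSS3, here without the pseudogenes, turned over in both arms. PRSS3 made up 78.5% ± 2.61 (SD, n = 3) of trypsinogen TPM in untreated cells at 0 h, and PRSS2 20.98% ± 2.79. After 48 h without TGFβ PRSS2 made up 85.3% ± 0.913 and PRSS3 14.4% ± 0.864. After 48 h with TGFβ PRSS2 made up 97.3% ± 0.132 and PRSS3 2.16% ± 0.148. Averaged over 8, 24 and 48 h, the PRSS2 share was 8.68 percentage points higher with TGFβ (exact permutation test within time points, two-sided p = 0.00025, the smallest that 8000 relabellings can give). The PRSS3 share was 8.87 points lower in the same exact permutation test (p = 0.00025). PRSS1 stayed between 0.329% and 1.15% of the sum in the group means, and its share differed by 0.191 points (exact permutation p = 0.177). Without TGFβ 8 h replicate 2, the library with the lowest PRSS1 level in that arm after 0 h, that difference was 0.27 points (exact permutation p = 0.0255).

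**Figure D3:**
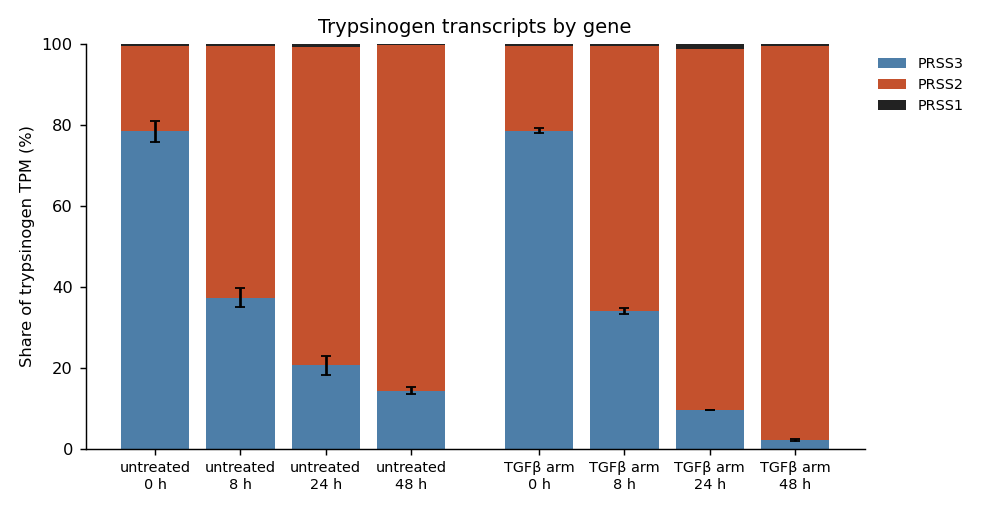
Share of summed PRSS1, PRSS2 and PRSS3 TPM in percent (y axis, from 0 to 100) for each arm and time point (x axis), as stacked means of 3 libraries with bars for the SD of the PRSS3 share. PRSS3 goes from 78.5% at 0 h to 14.4% in untreated cells and to 2.16% with TGFβ at 48 h, while PRSS2 takes its place.

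PRSS1 and PRSS2 were both higher with TGFβ at 24 and 48 h, but in untreated cells at 48 h PRSS2 stood at 3.95 times and PRSS1 at 0.575 times its mean at 0 h. PRSS1 held 0.504% of trypsinogen TPM with TGFβ at 48 h, and 11.3% of the 31-base words of its main transcript occurred in PRSS2. Whether part of the PRSS1 estimate came from PRSS2 reads was not tested. The annotated pseudogenes PRSS3P1, PRSS3P3 and PRSS3P4 carried little: PRSS3P4 lay between 0.312 and 1.94 TPM in the group means, PRSS3P1 lay at 0 TPM in untreated cells at 0 h and at 0.294 TPM with TGFβ at 48 h, and PRSS3P3 never exceeded a mean of 0.048 TPM.

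Single transcripts were read next. Of the 30 transcripts of the 6 genes in the tables, 17 held at least 10% of their gene's TPM in some group, and 15 of these had enough counts to test. The limma voom fit per transcript called 4 of them at 8 h and 10 each at 24 and 48 h. Over the whole set of 82807 transcripts, 2.59%, 5.45% and 6.67% passed at the respective times. That set was not limited by share of gene TPM, so the comparison is not like for like. The member transcripts that passed were higher with TGFβ. None of the 3 HTRA2 transcripts was among them. ENST00000311737 and ENST00000463701 of PRSS1 and ENST00000495682 of PRSS3 had few counts in untreated cells. They met the count filter through TGFβ libraries, so a call of lower was hardly open to them.

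All 3 PRSS2 transcripts in the tables rose with a like slope. ENST00000539842, which encodes the protein, went from 38.3 ± 2.34 TPM untreated to 827 ± 5.98 TPM with TGFβ at 48 h. ENST00000618750, which covers the later exons, went from 5.90 to 130 TPM, and the retained-intron transcript ENST00000610835 from 4.29 to 92.7 TPM. The limma voom differences at 48 h were 4.47, 4.5 and 4.49 on the log2 scale. ENST00000539842 kept between 75.3% and 80.0% of the PRSS2 TPM in every group.

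PRSS3 expression came mainly from the upstream first exon. ENST00000361005, which starts at chr9:33750679, held 30.2 ± 5.98 TPM in untreated cells at 0 h, and ENST00000429677, which starts at position 33750821, held 7.74 ± 1.52 TPM. ENST00000379405, which starts downstream at 33795561 and encodes the pancreatic form, held 2.20 ± 1.52 TPM. The gene sums of the arms overlapped at 0 h. At that time ENST00000429677 stood at 6.11 to 9.12 TPM in untreated libraries and at 16.3 to 22.7 TPM in the TGFβ arm. The limma voom difference of this transcript at 0 h was 1.35 on the log2 scale (SE 0.41, adjusted p = 0.82). It passed at none of the later times, with adjusted p = 0.25, 0.019 and 0.013 in limma voom at 8, 24 and 48 h, and 1 untreated library at 48 h held almost none of it. At 48 h ENST00000361005 was higher with TGFβ (11.3 against 5.13 TPM, log2 difference 1.16, SE 0.23, adjusted p = 1.5e-03 in limma voom).

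The PRSS3 transcript ENST00000495682, which covers only the 3′ part of the gene, had another course than the gene. In the TGFβ arm it stood at 0.194 ± 0.106 TPM at 0 h, 0.594 ± 0.333 TPM at 8 h, 1.21 ± 0.187 TPM at 24 h and 3.97 ± 0.802 TPM at 48 h, while ENST00000361005 stood at 24.5 ± 3.45 TPM at 0 h and 11.3 ± 1.61 TPM at 48 h. In untreated cells it lay between 0.0998 and 0.19 TPM. Its difference at 48 h was 4.44 on the log2 scale (SE 0.63, adjusted p = 4.3e-05 in limma voom), against 4.47 for PRSS2. It made up 17.1% of PRSS3 TPM with TGFβ at 48 h, on a mean of 52.4 estimated counts. Of its 31-base words 6.1% occurred in PRSS2, and whether PRSS2 reads contributed to it was not tested.

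In PRSS1, the coding transcript ENST00000311737 held 2.69 TPM and the retained-intron transcript ENST00000463701 2.43 TPM with TGFβ at 48 h. Untreated means at 48 h were 0.0712 and 0.0415 TPM. At 24 h with TGFβ the order was 2.95 against 0.795 TPM. The limma voom difference at 24 h was 3.24 on the log2 scale for the coding transcript (SE 0.72, adjusted p = 5.6e-03) and 4.30 for the other (SE 1.00, adjusted p = 7.5e-03). At 48 h the coding transcript did not pass (5.47, SE 1.40, adjusted p = 0.014 in limma voom) and the other did (6.12, SE 1.04, adjusted p = 3.3e-04). The division of reads within PRSS1 was not resolved at this depth, since each untreated group held under 10 counts of either transcript. The other PRSS1 transcripts with at least 10% of its TPM, ENST00000485223 and ENST00000497041, had too few counts to test.

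HTRA1 had a pair of transcripts in the tables that rose together. The full-length ENST00000368984 went from 37.5 TPM untreated to 196 TPM with TGFβ at 48 h, and ENST00000420892, which covers the 3′ part, from 52.1 to 300 TPM. Their limma voom differences were 2.40 (SE 0.059) and 2.55 (SE 0.069) on the log2 scale.

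HTRA3 is known to have a long form with a PDZ domain and a short form without it. The short-form transcript ENST00000382512 held 10.1 TPM untreated and 17.7 TPM with TGFβ at 24 h, a log2 difference of 0.85 (SE 0.094, adjusted p = 2.5e-06 in limma voom). The long-form transcript ENST00000307358 held 57.2 and 59.9 TPM at the same time, a log2 difference of 0.12 (SE 0.12, adjusted p = 0.66 in limma voom). At 8 h the short form also passed, at 0.32 (SE 0.062, adjusted p = 3.1e-03 in limma voom). At 48 h both passed, the short form at 1.41 (SE 0.12) and the long form at 0.81 (SE 0.15) on the log2 scale. The difference between the forms itself was not tested. The short form made up 14.2% of HTRA3 TPM in untreated cells and 20.1% with TGFβ at 48 h.

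**Figure D4:**
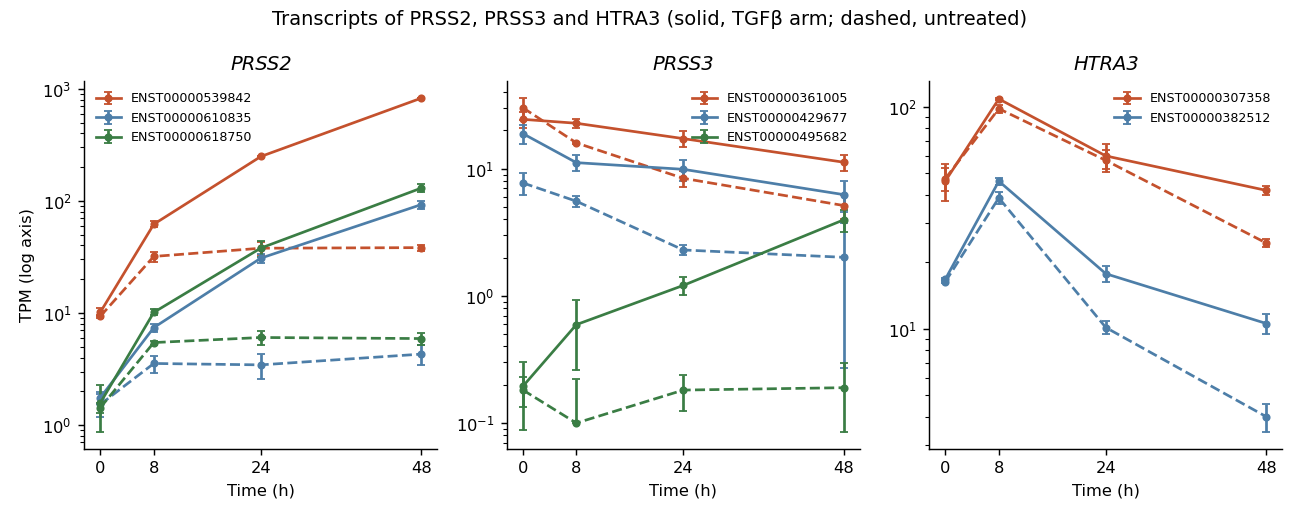
TPM on a log axis (y) against time in hours (x) for transcripts with at least 10% of the TPM of PRSS2, PRSS3 or HTRA3 in some group, as means of 3 libraries with SD bars (the lower bar is left out where the SD exceeds the mean). Solid lines are the TGFβ arm and dashed lines untreated cells. The PRSS2 transcripts rise in parallel, ENST00000495682 of PRSS3 rises to 3.97 TPM while the other PRSS3 transcripts fall, and the lower HTRA3 line, the short form, separates by 24 h.

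The promoters of the trypsinogen genes were compared next. The 250 bases before the RefSeq start (GRCh38.p14) were 86.7% identical between PRSS1 and PRSS2, 88.0% between PRSS1 and PRSS3 and 85.2% between PRSS2 and PRSS3. They are printed because PRSS1 and PRSS2 were both higher with TGFβ at 24 and 48 h and lie in the same cluster on chromosome 7. The PRSS3 sequence belongs to its downstream start, not to the upstream first exon that carried most of its TPM. They lie at chr7:142749222-142749471, chr7:142770720-142770969 and chr9:33795311-33795560, all on the plus strand. Capitals mark TGANTCA (a loosened AP-1 motif with any base at N, a pattern that matches on both strands), CAGAC (a SMAD motif) and TATAAA.
PRSS1: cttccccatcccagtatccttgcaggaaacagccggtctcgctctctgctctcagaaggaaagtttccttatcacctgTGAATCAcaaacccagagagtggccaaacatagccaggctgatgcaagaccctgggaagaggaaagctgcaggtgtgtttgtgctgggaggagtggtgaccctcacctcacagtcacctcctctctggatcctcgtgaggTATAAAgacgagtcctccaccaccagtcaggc
PRSS2: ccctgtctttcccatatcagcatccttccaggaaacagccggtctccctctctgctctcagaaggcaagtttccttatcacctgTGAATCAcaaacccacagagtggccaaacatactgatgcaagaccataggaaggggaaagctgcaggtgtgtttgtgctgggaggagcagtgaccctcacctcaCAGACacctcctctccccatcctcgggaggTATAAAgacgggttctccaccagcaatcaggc
PRSS3: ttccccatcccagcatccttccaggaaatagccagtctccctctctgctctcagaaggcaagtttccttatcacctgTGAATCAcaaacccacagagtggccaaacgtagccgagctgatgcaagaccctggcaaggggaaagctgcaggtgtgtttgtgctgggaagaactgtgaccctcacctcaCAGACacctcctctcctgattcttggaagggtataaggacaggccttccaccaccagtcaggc

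The loosened AP-1 pattern was matched by TGAATCA in each, at position -172 from the start in PRSS1, -166 in PRSS2 and -173 in PRSS3. TGANTCA with any base at N occurred in 6.6% of 35116 RefSeq promoter windows of 250 bases. CAGAC, searched on both strands, lay at -62 in PRSS2 and at -63 in PRSS3, and it occurred in 38% of windows. It was also present in the windows of HTRA1, HTRA2 and HTRA3. TATAAA lay at -32 in PRSS1 and PRSS2 and occurred in 10.7% of windows. No measurement here bears on binding to these letters.

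The pancreatic acinar cell is the usual source of trypsinogens, so its other products were checked. Of 16 acinar genes (CPA1, CELA3A, PNLIP, AMY2A and others), 14 stayed below 1 TPM in every library, and CPA1, CLPS, SYCN and REG1A were at 0 in all 24. Their summed level lay between 1.95 and 3.83 TPM. Only 4 had enough counts to test, and limma voom called none of them in the F-test, with adjusted p from 0.26 to 0.90. PRSS2 at 1050 TPM was therefore not accompanied by these enzymes. TGFβ targets moved with the arm: SMAD7, SKIL and PMEPA1 all passed the F-test and were higher with TGFβ, with limma voom differences at 48 h from 2.47 to 4.53 on the log2 scale.

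Of 14 genes that activate, inhibit or sense trypsin, 12 were tested. In the limma voom F-test 4 were called higher and 3 lower, against 42.5% of all genes called and 21% called higher, with a median log2 difference at 48 h of 0.06 against -0.01 over all genes. F2RL1, which encodes PAR2, the receptor that trypsin cleaves, stood at 54.0 TPM in untreated cells at 0 h. At 48 h it held 21 TPM without and 235 TPM with TGFβ, a log2 difference of 3.55 (SE 0.069). TMPRSS15, which encodes the trypsinogen activator enteropeptidase, stood at 5.48 TPM untreated and 7.46 TPM with TGFβ at 48 h, a log2 difference of 0.45 (SE 0.085). A2M, the broad protease inhibitor alpha-2-macroglobulin, held 185 TPM untreated and 31.2 TPM with TGFβ at 48 h, a log2 difference of -2.57 (SE 0.063). SPINK1, the pancreatic secretory trypsin inhibitor, was too low to test, with 0.104 and 0.153 TPM at 48 h.

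Of 31 other trypsin-like and chymotrypsin-like proteases, 18 stayed below 1 TPM in every library and 20 were tested. In the limma voom F-test 3 were called higher and 7 lower, or 10 of 20 where 42.5% of all genes were called, with a median of -0.13 at 48 h. The 3 called higher on average were ST14, which encodes the membrane protease matriptase, with a log2 difference of 0.64 at 48 h, PRSS22, with 1.17 at 8 h and -0.10 at 48 h, and PRSS23, with 0.14 at 48 h (named after their values were seen). Those with an average change of at least 2-fold were all lower with TGFβ. TMPRSS2, a membrane serine protease, held 3.83 TPM untreated and 0.606 TPM with TGFβ at 48 h (log2 difference -2.72, SE 0.12). The kallikrein KLK10 went from 3.58 to 0.741 TPM (-2.37, SE 0.18), and KLK7 from 0.302 to 0.0577 TPM (-2.16, SE 0.45).

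Extracellular proteins that HtrA proteases are known to cut or bind were listed next, together with the related gene HTRA4. All 17 were tested, and the limma voom F-test called 6 higher and 8 lower, against 42.5% of all genes called, with a median of -0.17 at 48 h. BGN, the matrix proteoglycan biglycan, rose from 1.03 TPM untreated to 106.5 TPM with TGFβ at 48 h, a log2 difference of 6.66 (SE 0.18). DCN, the related decorin, stood at 12.2 and 1.47 TPM, a log2 difference of -3.30 (SE 0.14). EFEMP1, the matrix protein fibulin-3, was at 151.5 and 348 TPM (1.24, SE 0.043), and the ligand gene TGFB1 at 64.1 and 174 TPM (1.46, SE 0.14). GDF5, a ligand of the same family, stood at 0.437 and 0.0472 TPM (-3.07, SE 0.45). HTRA4, the remaining human HtrA gene, was not called, with 0.604 and 0.526 TPM at 48 h and an F-test adjusted p of 0.46 in limma voom.

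Among 16 partners of HTRA2 in mitochondria and apoptosis, all were tested, and the limma voom F-test called 5 higher and 3 lower, a share near the 42.5% of all genes, with a median of 0.04 at 48 h. XIAP, an inhibitor of caspases that HTRA2 binds, stood at 11.6 TPM untreated and 16.3 TPM with TGFβ at 48 h (log2 difference 0.54, SE 0.12). BIRC7, another inhibitor of apoptosis, rose from 0.219 to 3.06 TPM (3.69, SE 0.29). BIRC3, a relative that acts in NF-kB signalling, fell from 17.5 to 4.43 TPM (-1.96, SE 0.091). These changes stood beside an HTRA2 difference of 0.18.

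**Figure D5:**
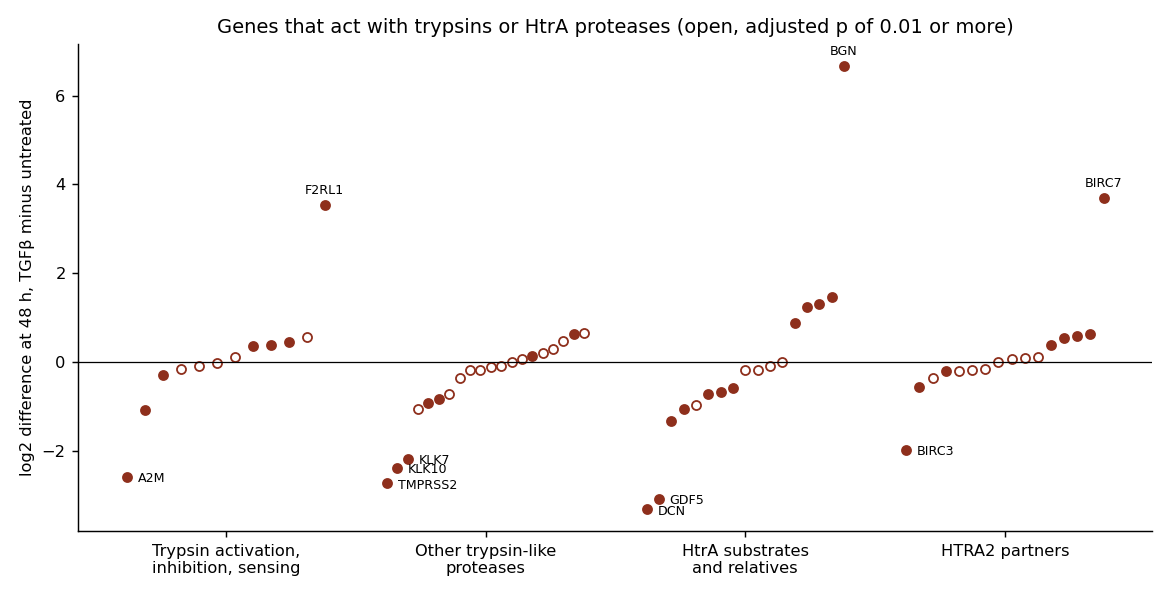
Log2 difference between TGFβ-treated and untreated cells at 48 h (y axis) for each tested gene of 4 lists (x axis), ordered within a list; filled points passed an adjusted p of 0.01 in limma voom, and genes with a difference of at least 1.5 in size are named. BGN (6.66), BIRC7 (3.69) and F2RL1 (3.55) are highest, and DCN (-3.30) and GDF5 (-3.07) lowest.

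The genes whose log2 expression followed each member most closely over the 24 libraries were listed by Pearson r, as a description of libraries that share treatment, time and depth. For PRSS2 they were FGF1 (r = 0.993), RHOBTB1 (0.983), COL16A1 (0.981), ITGA11 (0.980) and TIMP2 (0.979). HTRA1 was followed by HLA-DQA1 (0.966), R3HDML (0.960), ELN (0.956), FAM178B (0.952) and IGFBP7 (0.952). For PRSS1 the list was ACVR1C (0.937), SPECC1 (0.925), UMODL1 (0.922), CORO2B (0.920) and DSE (0.918). PRSS3 was followed by SLC38A5 (0.985), CDK2AP1 (0.979), PPP1R14B (0.975), VEPH1 (0.971) and FKBP1A (0.971). For HTRA3 they were ELF4 (0.968), BLOC1S3 (0.952), RUSC1 (0.950), DNMT3B (0.920) and DNAAF8 (0.918), and for HTRA2 TRIP10 (0.961), MEN1 (0.956), FBXL19 (0.953), SH3TC1 (0.949) and ZBTB47 (0.948). No member was among the 5 genes most like another member.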

How the data were processed

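The authors quantified the reads with kallisto 0.43.0 against Ensembl release 79 transcripts of GRCh38 and deposited 1 table per library. In the deposited tables, estimated counts are reads assigned per transcript by kallisto's model, not normalized. The deposited TPM values are those counts per effective length, scaled to a fixed library total. Libraries held 46613589 to 77964234 estimated counts.

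Of 173259 transcripts, 155518 were assigned to genes by GENCODE release 44 and the rest left out. Counts were summed per gene and rounded. Genes with at least 10 counts in at least 3 libraries entered limma 3.58.1 (voom, TMM, 1 mean per group, 24 libraries), with Benjamini-Hochberg adjustment over all of them and a threshold of 0.01. edgeR 4.0.16 and DESeq2 1.42.0 were alternatives. On simulated counts of 17190 genes the F-test recovered 75 of 100 genes changed by 0.75 and 91 of 100 changed by 1.5 (log2). It made 0 false calls among the unchanged genes. The simulation held no deviations shared between libraries and no offset between codes, so it does not cover errors from these. Replicate numbers come from the labels. Deviations of same-numbered libraries correlated at 0.135 to 0.542 at 0 h and 0.231 to 0.537 at 24 h, but at -0.023 to 0.118 at 8 and 48 h. Some differently numbered libraries also correlated. Untreated replicate 1 and TGFβ replicate 3 did so at 0.259 at 0 h and 0.209 at 24 h. Untreated replicate 3 and TGFβ replicate 1 did so at 0.042 and 0.268. Whether replicates were separate cultures of 1 thaw is not stated, so p-values measure the spread between these dishes, pooled over all 8 groups. That spread differed between groups. The chi-square per gene comparing counts of replicates 1 and 2 in the TGFβ arm was 57.1 at 0 h and 4.07 at 8 h. It was 44.6 at 24 h and 3.33 at 48 h. Members and lists were chosen with earlier results of these data known. Named are the 6 genes, their transcripts with at least 10% of gene TPM, the 5 genes most like each by Pearson r, listed genes called with at least 2-fold average change, and F2RL1, SPINK1, TMPRSS15, HTRA4 and XIAP. SMAD7, SKIL and PMEPA1 checked the treatment. Intervals do not include kallisto's uncertainty.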

Additional observations from a re-analysis of the deposited data

Results flagged for a closer look

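The difference between the arms changed with time for 5 of the 6 genes by a limma voom test of the change itself. Such changes were called for 7.88% of all genes from 0 to 8 h, 9.11% from 24 to 48 h and 14.0% from 8 to 48 h. From 0 to 8 h it grew by 0.85 on the log2 scale for PRSS2 and by 0.62 for PRSS3. Between 24 and 48 h the growth was 1.70 for PRSS2, 1.46 for HTRA1 and 0.68 for HTRA3. Over 8 to 48 h it was 3.68 for PRSS1, 3.45 for PRSS2, 2.20 for HTRA1, 0.71 for PRSS3 and 0.66 for HTRA3. The adjusted p in limma voom lay between 2.3e-15 for HTRA1 and 4.3e-03 for HTRA3. PRSS1 passed only from 8 to 48 h, which crosses file-name codes. That PRSS1 change was lost without either of 2 untreated libraries, and the HTRA3 change from 24 to 48 h without any of 7 libraries.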

How the results depend on the processing

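The calls of PRSS2, PRSS3 and HTRA1 between the arms at 8, 24 and 48 h held in every setting run. A stricter filter on low counts left PRSS1 untested. Scaled to the 4 reference genes of the study's qRT-PCR, the median of all genes shifted by 0.43 at 24 h and 0.34 at 48 h on the log2 scale. HTRA2 then differed by 0.60 and 0.54 and was called, in untreated cells 4 of the 6 genes changed from 24 to 48 h, and PRSS2, called there at 0.48, reversed. Under it HTRA3 passed at 8 h (adjusted p = 0.0011) and 24 h (1.5e-08), and the fall of PRSS3 from 24 to 48 h did not pass untreated (0.15) or with TGFβ (0.059, limma voom). limma-trend on log2(TPM + 1) or log2(TPM + 0.1), or a fit of only the libraries compared, called 3 genes for TGFβ 8 h against 0 h, and leaving out single libraries gave 3 to 5. The latter moved the PRSS1 share difference between 0.114 and 0.27 points. For the main trypsinogen transcripts, words of 21 bases gave 30.5% for PRSS1, 34.3% for PRSS2 and 26.0% for PRSS3, and words of 75 bases 0.0% each. By Spearman rho ACVR1C ranked 9 for PRSS1, FGF1 128 for PRSS2, HLA-DQA1 712 for HTRA1 and TRIP10 37 for HTRA2. By group means ACVR1C ranked 7 and SLC38A5 ranked 6. The causes were not tested.

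The replicate block over all groups moved no count of called members. As a replicate block within each time point, 4 genes were called for the change from 0 to 8 h (HTRA1 and HTRA3 added). HTRA3 at 8 h (adjusted p = 0.00025) and HTRA2 at 48 h (0.00055) and over all times (0.00029) also passed in limma voom, and HTRA1 did not for TGFβ 8 h against 0 h (0.36). That HTRA1 call was also lost with upper-quartile factors (0.015), DESeq2 size factors (0.013), reference genes (0.42) and length-scaled counts (0.06). A fit of only the time point's libraries passed HTRA3 at 8 h and HTRA2 at 48 h. Over all genes the block within time points called 4530 against 2859 at 8 h, 2433 against 1376 for the change from 0 to 8 h, 3238 against 1590 from 24 to 48 h and 4176 against 2448 from 8 to 48 h. Fits of only the libraries compared called 5260 at 8 h, 2731 against 5112 at 24 h and 4962 from 8 to 48 h, in the TGFβ arm 3105 against 5905 and 2451 against 4504. The reference genes called 9841 at 24 h, 11022 against 4951 from 24 to 48 h untreated and 8978 in the TGFβ arm. Length-scaled counts called 1052 and limma-trend on log2(TPM + 0.1) 1000 for the change from 24 to 48 h. At 0 h DESeq2 called 8 genes and the block 3. Values past no threshold in either setting changed sign 56 times.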
